A study of Mus musculus with 2 samples.

Results

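Integrin and laminin chain genes are the genes for the subunits of integrin receptors and of laminins. They were taken by symbol (Itga, Itgb, Lama, Lamb or Lamc followed by the chain's number or letter) where the annotation lists a protein-coding transcript, leaving out the integrin-binding proteins Itgb1bp1, Itgb1bp2 and Itgb3bp and the integrin-like Itgbl1. This gave 38 genes of 21901 with a protein-coding transcript, among 55536 annotated genes: 18 integrin alpha chains, 9 integrin beta chains and 11 laminin chains. Their levels were read in total RNA of heart tissue from male B6CASTF1/J mice aged 36 days. The strain is an F1 hybrid of the B6 and CAST strains, and the labels give no treatment or altered allele. The labels give 1 group of 2 biological replicates, called heart 1 and heart 2 here, each prepared from 300 ng of RNA with added spike-in RNAs. No groups were compared, and the labels give the 2 samples separate biosample entries but 1 shared donor entry. Whether that means 1 animal is not stated, so the spread between them may be technical in part.

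An integrin is a receptor made of 1 alpha and 1 beta chain that spans the cell membrane and ties the matrix outside the cell to the actin cytoskeleton inside it. A laminin is a cross-shaped matrix protein of 1 alpha, 1 beta and 1 gamma chain that polymerises into the basement membrane. In heart muscle the integrin of Itga7 and Itgb1 sits at the costameres and binds the laminin of Lama2, whose loss causes a muscular dystrophy. Capillary endothelium adds laminins of Lama4 and Lama5, and blood cells and platelets bring integrins of their own.

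Levels are given in TPM, a transcript abundance scaled to a fixed total per library and corrected for transcript length, as mean ± SD over the 2 hearts (n = 2). Comparison between genes is limited where short annotated pieces, which weigh more per read, hold much of a gene's TPM. Reads are given as counts, the estimated number of reads assigned to a gene by the authors' first quantification. Differences between hearts are given as the log2 ratio of heart 2 over heart 1 after scaling the libraries with TMM factors. These factors set the trimmed mean of the ratios to 0 over the genes kept by an expression filter. The libraries held 41846508 and 42481559 expected counts, of which 96530 and 96856, or 0.231% and 0.228%, fell on the 38 genes. Where a gene has 0 counts the limit is 3 counts, which is 0.0717 CPM (counts scaled to the library total) in heart 1 and 0.0706 CPM in heart 2. The label heart was met: the summed level of 4 cardiomyocyte markers (Myh6, Tnnt2, Actc1 and Ryr2) was 15596 and 17294 TPM. Hearts 1 and 2 differed in blood and fat RNA, with summed levels of 20325 and 9335 TPM for 5 erythroid markers and of 75.5 and 8.28 TPM for 6 adipocyte markers. The 6 skeletal muscle markers summed to 495 and 244 TPM, nearly all of it from Acta1, an actin also made in heart muscle, with 22335 and 11009 reads, while Myh1, Myh2 and Myh4 had 5 counts or fewer in each heart. The part of these in the differences between hearts given here was not tested. In bulk tissue, fewer cells of a type and less RNA per cell cannot be told apart.

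Of the 38 genes, 23 (60.5%) reached 1 TPM in both hearts, against 49.9% of 21938 nuclear protein-coding genes. On average 15 stood at 5 TPM or more, 10 between 1 and 5 TPM and 13 below 1 TPM. In the first quantification Itgb1 was the most abundant, in place 361 of the nuclear protein-coding genes, followed by Lamb2, Lamc1, Itga7 and Lama2. The authors' second quantification also put Itgb1 (179 TPM) and Lamb2 (108 TPM) first. Itga6 (107 TPM), Lamc1 (62.5 TPM), Itga7 (50.9 TPM), Itga9 (43.1 TPM) and Lama2 (42.2 TPM) followed there.

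**Figure D1:**
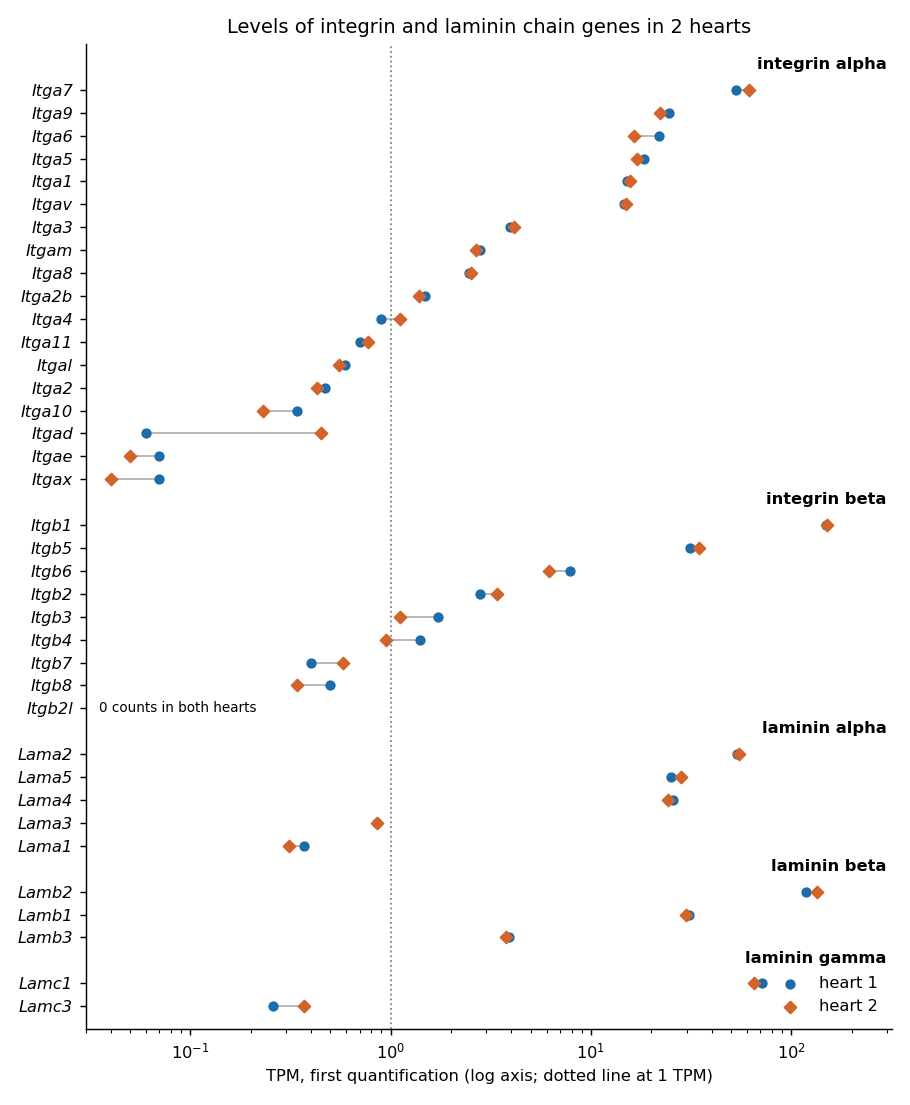
Level of 37 of the 38 genes in TPM (log axis) in heart 1 (circles) and heart 2 (diamonds), by class of chain and ordered by mean; grey lines join the 2 hearts. Itgb1, Lamb2, Lamc1, Itga7 and Lama2 lie above 50 TPM in both hearts, and Itgb2l has 0 counts in both.

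Sequences are shown for the alternative exons of Itgb1, Itga7 and Itga6, because these chains exist in forms with different ends inside the cell or different ligand-binding surfaces, and the transcript values below turn on them. They were read from the annotation's transcript sequences (GENCODE M21) and placed on mm10. Itgb1 (chr8:128685654-128733200, plus strand) has an 81 nt exon that introduces its own stop codon and so replaces the end of the cytoplasmic tail; in textbooks this is the D form of striated muscle, and the form without the exon is the widespread A form. The coding part of the 81 nt exon (chr8:128726983-128727057) and the end of the last exon (chr8:128732023-128732088), which is used in its absence, are given with the stop codon in capitals.
Itgb1 with the 81 nt exon: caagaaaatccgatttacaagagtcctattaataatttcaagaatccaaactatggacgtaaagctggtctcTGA
Itgb1 without it: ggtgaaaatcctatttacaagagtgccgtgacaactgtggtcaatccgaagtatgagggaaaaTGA
Compared without a gap from the first base, 41 of 63 positions before the shorter form's stop codon are identical, and the tail with the exon has 72 coding bases in place of 63.

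Itga7 (chr10:128933818-128958282, plus strand) and Itga6 (chr2:71745616-71858416, plus strand) each have an exon near the 3′ end that changes the cytoplasmic tail to the form known as A, while skipping it gives form B. The 113 nt exon of Itga7 (chr10:128956611-128956723) and the 130 nt exon of Itga6, printed to its stop codon (chr2:71853534-71853641), begin with the same 12 bases, shown in capitals.
Itga7 113 nt exon: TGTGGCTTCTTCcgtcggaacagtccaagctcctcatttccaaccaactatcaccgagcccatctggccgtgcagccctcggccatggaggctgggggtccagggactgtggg
Itga6 130 nt exon: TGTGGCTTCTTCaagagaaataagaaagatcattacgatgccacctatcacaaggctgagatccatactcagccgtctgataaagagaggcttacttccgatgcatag
The Itga7 exon is not a multiple of 3 and so shifts the reading frame of what follows, whereas the Itga6 exon carries its own stop after 105 coding bases. Itga7 also has a pair of neighbouring exons in its extracellular part, of which each full-length transcript has 1. The exon of transcript Itga7-202 has 132 nt (chr10:128941445-128941576) and that of transcript Itga7-201 has 120 nt (chr10:128941822-128941941), both multiples of 3, and no base is in capitals.
Itga7-202 exon: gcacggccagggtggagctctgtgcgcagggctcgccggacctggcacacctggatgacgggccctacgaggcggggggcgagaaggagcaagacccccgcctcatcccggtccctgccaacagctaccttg
Itga7-201 exon: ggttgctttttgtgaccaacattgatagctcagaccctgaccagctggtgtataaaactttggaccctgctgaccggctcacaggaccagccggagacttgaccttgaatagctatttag

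Integrin alpha chains summed to 162 ± 0.884 TPM, and the laminin-binding chains Itga7, Itga6 and Itga3 made up 49.8% ± 1.30 of this sum. Their share was 60.5% in the second quantification and 38.7% by counts. A restriction to near full-length coding transcripts, at least 0.5 times as long as the gene's longest, was added after seeing the data. With it the share was 49.0% in the first quantification and 49.8% in the second. Itga7, the main laminin receptor chain of muscle, stood at 53.0 TPM in heart 1 and 61.8 TPM in heart 2 (57.4 ± 6.19). It held 35.5% ± 3.63 of the alpha chain TPM and led the alpha chains in each heart. In the second quantification Itga6 led at 107 TPM, with Itga7 at 50.9 TPM and 18.8%. The reads of Itga7 in the first quantification were 5659 and 6583, a log2 ratio of 0.17. Itga6, a laminin receptor chain of endothelium and epithelium, stood at 21.8 and 16.4 TPM (19.1 ± 3.80), with 2541 and 1856 reads and a log2 ratio of −0.50. Heart 1 was the higher. Itga3, a laminin receptor chain of epithelia, stood at 4.04 ± 0.156 TPM.

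Itga9, which pairs with Itgb1 and binds tenascin and other ligands, was next to Itga7 among alpha chains at 24.4 and 22.2 TPM (23.3 ± 1.56). In the second quantification it stood at 43.1 TPM, below Itga6 and Itga7. Its relative Itga4, a chain of blood cells that binds Vcam1 and fibronectin, stood at 1.00 ± 0.156 TPM. The chains that recognise the RGD motif of fibronectin and vitronectin held 22.5% of alpha chain TPM in the first quantification. Their share was 15.1% in the second and 19.9% by counts. Near full-length coding transcripts gave these chains 22.1% in the first and 21.4% in the second. Among them, Itga5, the fibronectin receptor chain, stood at 18.3 and 17.0 TPM (17.7 ± 0.912). Itgav, which pairs with several beta chains, stood at 14.7 and 15.0 TPM (14.8 ± 0.219). Itga8 followed at 2.49 ± 0.0495 TPM. Itga5 lay between the 2 values of Itga6, so these neighbours did not differ beyond their spread.

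Collagen receptor chains held 10.4% in the first quantification, 6.50% in the second and 16.6% by counts. Near full-length coding transcripts gave them 7.47% in the first and 8.24% in the second. Nearly all of the 10.4% was Itga1 at 15.1 and 15.7 TPM (15.4 ± 0.382). The others, Itga11 (0.735 ± 0.0495 TPM), Itga2 (0.450 ± 0.0283 TPM) and Itga10 (0.285 ± 0.0778 TPM), were below 1 TPM. Itga1 and Itga2 are neighbours on the same strand of chromosome 13, 20995 bp apart with no protein-coding gene between them, and the level of Itga1 was far above that of Itga2 in both hearts. The Itga1 value is uncertain by the reads of Gm49395, a protein-coding entry that shares exon bases on the same strand and had 96.6 and 126 counts. Itga10, Itgad and Itgam share exon bases with other entries in the same way, but those had 2 counts or fewer in each heart.

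Leukocyte chains Itgam, Itgal, Itgad, Itgae and Itgax together held 2.27% ± 0.0706 of alpha chain TPM. Itgam, the chain of macrophage and neutrophil complement receptor, was the highest at 2.79 and 2.68 TPM (2.74 ± 0.0778), while its neighbour Itgax on chromosome 7, a dendritic cell chain 11.1 kb away, stood at 0.0550 ± 0.0212 TPM. Itgal, a lymphocyte and myeloid chain, stood at 0.570 ± 0.0283 TPM. Itgad, Itgae and Itgax had 10 counts or fewer in each heart, and the order among these 3 and Itga10 overlapped between hearts. Of 6 macrophage markers 5 reached 1 TPM in both hearts, with a summed level of 63.2 and 61.8 TPM, whereas 0 of 6 lymphocyte markers did, with sums of 1.10 and 2.76 TPM. Of 5 neutrophil markers 2 did, with sums of 5.75 and 4.14 TPM and Mpo at 0 counts in both. The part of these cells in the leukocyte chains was not tested.

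Itga2b, the platelet chain that pairs with Itgb3 in the fibrinogen receptor, had 151 and 109 reads and stood at 1.49 and 1.39 TPM (1.44 ± 0.0707). Its log2 ratio was −0.51. Platelet markers had a summed level of 22.9 and 17.1 TPM, higher in heart 1 as well: 2 of 6 reached 1 TPM in both hearts, Pf4 with 240 and 173 reads and Ppbp with 136 and 137. Their part in the values of Itga2b and Itgb3 was not tested.

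Integrin beta chains summed to 197 ± 2.03 TPM, and 76.3% ± 0.237 of this was Itgb1, the partner of most alpha chains. Itgb1 stood at 149.9 and 151 TPM (151 ± 1.08) on 14362 and 14677 reads, a log2 ratio of −0.01 whose counting interval, from −0.05 to 0.02, included 0. Scaling by library totals or by spike-ins gave 0.01 and 0.06, so no direction can be given. Itgb5, which pairs with Itgav to bind vitronectin, followed at 31.3 and 34.8 TPM (33.1 ± 2.45). Together these 2 chains held most of the beta chain TPM in both hearts.

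Itgb6, an epithelial partner of Itgav that activates TGF-beta, came next at 7.88 and 6.17 TPM (7.03 ± 1.21), with 1005 and 738 reads and a log2 ratio of −0.49. Markers of lung epithelium were at or near 0, with no count of Sftpc or Scgb1a1 in either heart and 0 and 1 count of Sftpb. Markers of mesothelium, the epithelium on the heart's outer surface, were higher in heart 1: all 5 reached 1 TPM in both hearts, with sums of 24.0 and 17.8 TPM and a median log2 ratio of −0.46. Their part in the Itgb6 value was not tested. Itgb2, the shared partner of the leukocyte chains other than Itgae, stood at 2.79 and 3.41 TPM (3.10 ± 0.438). Itgb4, the hemidesmosome chain that pairs with Itga6, stood at 1.40 and 0.950 TPM (1.18 ± 0.318).

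Itgb3, the vitronectin and fibrinogen receptor chain, stood at 1.72 and 1.11 TPM (1.42 ± 0.431), so that it overlapped Itgb4. Itgb7, a lymphocyte chain, stood at 0.490 ± 0.127 TPM and Itgb8, which binds latent TGF-beta, at 0.420 ± 0.113 TPM, and these neighbours overlapped too. Itgb2l, a relative of Itgb2, had 0 counts in both hearts.

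Laminin alpha chains summed to 107 ± 2.29 TPM. Lama2, the muscle laminin chain (chr10:26980036-27619758, minus strand), stood at 53.4 and 55.0 TPM (54.2 ± 1.16) on 9621 and 10570 reads. It held 50.7% of the summed TPM in each heart, but 48.9% in heart 1 and 52.9% in heart 2 by counts. The endothelial and smooth muscle chains came next: Lama5 at 25.0 and 28.2 TPM (26.6 ± 2.24) and Lama4 at 25.8 and 24.3 TPM (25.0 ± 1.07). These 2 overlapped between hearts, and their order was not settled by the choice of values, since the second quantification put Lama4 at 26.3 TPM and Lama5 at 18.5 TPM. Lama5 was among the genes that differed in sign between units. Its TPM was higher in heart 2, while its reads, 5760 and 5669, gave a log2 ratio of −0.07 (0.01 with spike-in scaling). Itga8 did so as well, with 2.45 and 2.52 TPM but 451 and 398 reads and a log2 ratio of −0.22. Lama3, an epithelial chain, stood at 0.850 TPM in both hearts and Lama1, the chain of early embryos, at 0.340 ± 0.0424 TPM.

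Among laminin beta chains Lamb2, enriched at the neuromuscular junction and in mature vessels, held 78.6% ± 1.94 and stood at 118 and 135 TPM (126 ± 12.1). Of this, 37.6 and 46.3 TPM were on Lamb2-206, a 345 nt piece with 311 and 385 reads. The second quantification gave that piece 0 reads in both hearts. The Lamb2 share was 70.8% by counts and 75.4% in the second quantification. Lamb1, the widespread beta chain, stood at 30.8 and 30.0 TPM (30.4 ± 0.580) and held 19.0% ± 1.71, and Lamb3, a chain of skin basement membrane, at 3.84 ± 0.106 TPM. Lamc1, the gamma chain of nearly all laminins, stood at 71.7 and 65.0 TPM (68.3 ± 4.70) and held 95.3% ± 1.01 of laminin gamma TPM. Lamc3 stood at 0.315 ± 0.0778 TPM. The epithelial chains Lama3 and Lamb3 were thus each at a small part of the level of Lama2 and Lamb2.

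**Figure D2:**
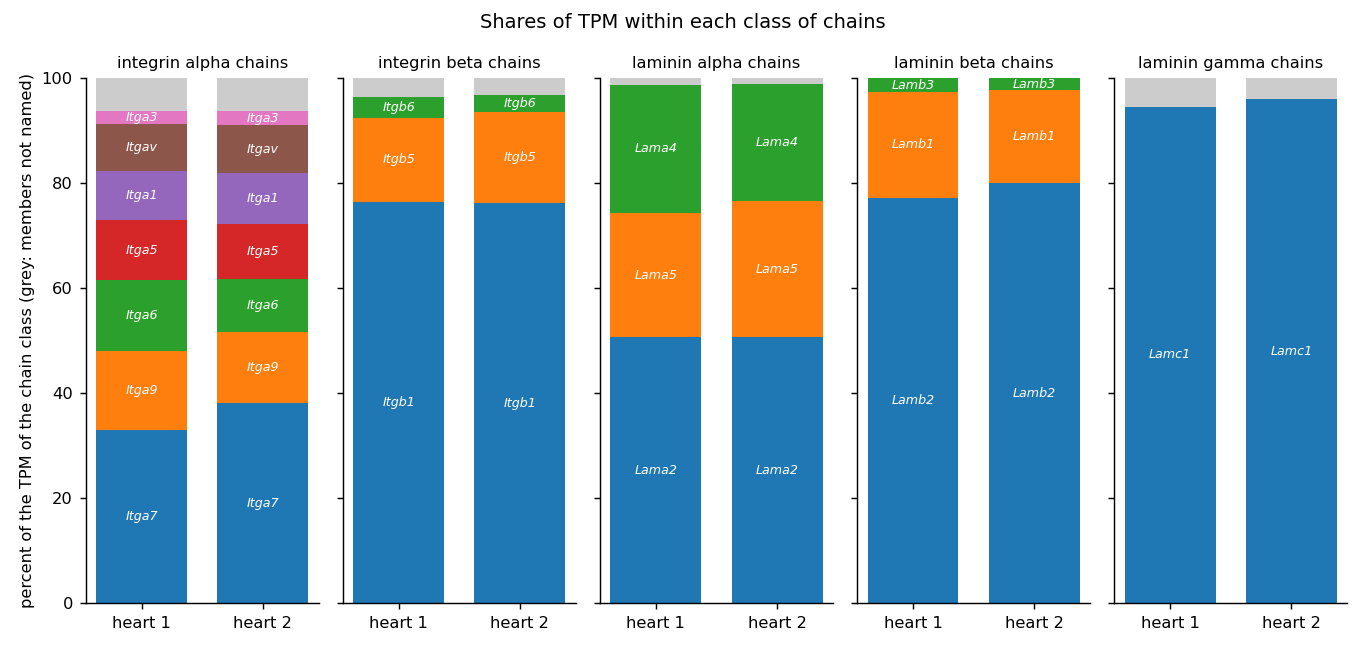
Percent of the TPM of each class of chains held by its members, 1 bar per heart, with members that are not named in the plot in grey. In the first quantification, which is plotted, Itgb1 (76.3%), Lamc1 (95.3%), Lamb2 (78.6%) and Lama2 (50.7%) lead their classes in both hearts, and Itga7 (35.5%) leads a more even class.

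The transcript values showed how Itgb1, Itga7 and Itga6 were split between the forms printed above. For Itgb1 the transcript with the 81 nt exon held 27.4% and 26.8% of the TPM on transcripts that contain or skip the exon (27.1% ± 0.400) in the first quantification and 30.8% ± 0.326 in the second. The transcript that carries the exon, Itgb1-204, is annotated only as a 711 nt piece with 840 and 836 reads, against 3815 nt and 13486 and 13811 reads for Itgb1-201, so the share compares a short stretch with a whole transcript. Both hearts and both quantifications put the A form above the D form.

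For the 113 nt exon of Itga7 the quantifications disagreed. The first gave 23.0% and 24.1% (23.6% ± 0.755) of the TPM on transcripts that contain or skip it to the transcript with the exon, Itga7-204, again a short annotated piece of 984 nt with 355 and 437 reads, and the second gave it 0 reads in both hearts. No level of the A-form tail can therefore be given from these files. The pair of extracellular exons gave like values in both: Itga7-202 held 18.1% and 14.4% (16.2% ± 2.62) in the first and 16.8% ± 3.28 in the second, and Itga7-201 the rest. The 130 nt exon of Itga6 was in 50.2% and 55.2% (52.7% ± 3.50) in the first and in 33.0% and 41.5% (37.2% ± 6.01) in the second, a difference larger than the spread between hearts. Most of the TPM without the exon in the first, 8.69 of 10.6 and 6.15 of 6.86 TPM, was on Itga6-203, which is annotated as noncoding. Among protein-coding transcripts alone, an alternative added after seeing the data, the exon was in 85.0% and 92.2% in the first and in 56.5% and 68.0% in the second. Which tail form of Itga6 led therefore depended on the transcripts counted and on the quantification. Transcripts with the exon led in both hearts, except in the second quantification with noncoding transcripts counted.

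**Figure D3:**
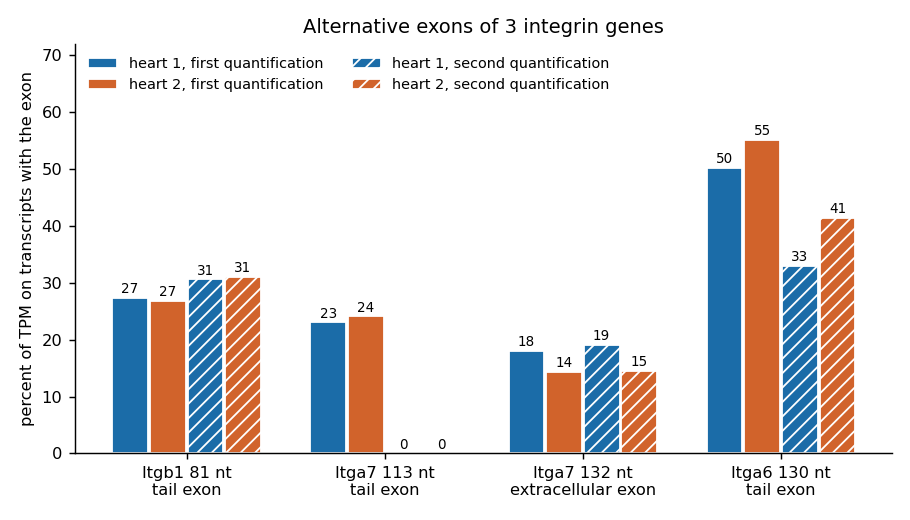
Percent of TPM on transcripts with the named exon, of those that contain or skip it, for each heart in the first (plain bars) and second (hatched bars) quantification. The Itgb1 exon stays between 26.8% and 31.1% in all 4 bars, while the 113 nt exon of Itga7 is at 0 in the second.

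Among the 15 genes at 5 TPM or more, 14 had the same transcript of highest TPM in both hearts in the first quantification, and all 15 did in the second. The exception was Itgb6, where Itgb6-202 led in heart 1 and Itgb6-201 in heart 2. For 12 of the 15 the leading transcript was the same across hearts and quantifications, and the other 3 were Itgb6, Itga6 and Itgb5. For Lama2 the full-length Lama2-201 held 48.1% ± 3.22 of TPM but 7831 of 9621 reads in heart 1, because short annotated pieces weigh more per read in TPM. Transcripts annotated as retaining an intron held 46.2% ± 0.165 of the TPM of Itga1, 37.1% ± 0.733 of Lama2 and 30.9% ± 5.44 of Lama4. In the second quantification these shares were 34.9%, 22.1% and 25.9%.

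Over the 25 genes at 1 TPM or more on average, the second quantification gave 0.679 to 5.60 times the TPM of the first, with a median of 1.08, and 1.04 to 1.36 times the counts. Itga6 alone was 2-fold or more apart, with 19.1 TPM in the first quantification against 107 TPM. Its 443 nt noncoding transcript Itga6-205 stood at 78.8 and 88.3 TPM in the second quantification on 367 and 403 reads, and at 0.25 and 0.74 TPM in the first. Restricted to protein-coding transcripts at least 0.5 times as long as the gene's longest, an alternative added after seeing the data, the level of Itga6 was 10.9 TPM by the first quantification and 12.4 TPM by the second, and that of Itga7 was 42.9 and 49.7 TPM. The same restriction, in the first quantification, lowered several other levels by over 1.5 times: Itgav to 6.35 TPM, Itga1 to 7.75 TPM, Itga4 to 0.635 TPM, Lama2 to 26.1 TPM, Lama5 to 14.5 TPM, Lamb2 to 75.7 TPM and Lamb3 to 2.28 TPM. The share of Itga7 among alpha chains was 18.8% in the second quantification as deposited, where Itga6 led, and 37.4% with this restriction, where Itga7 led.

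**Figure D4:**
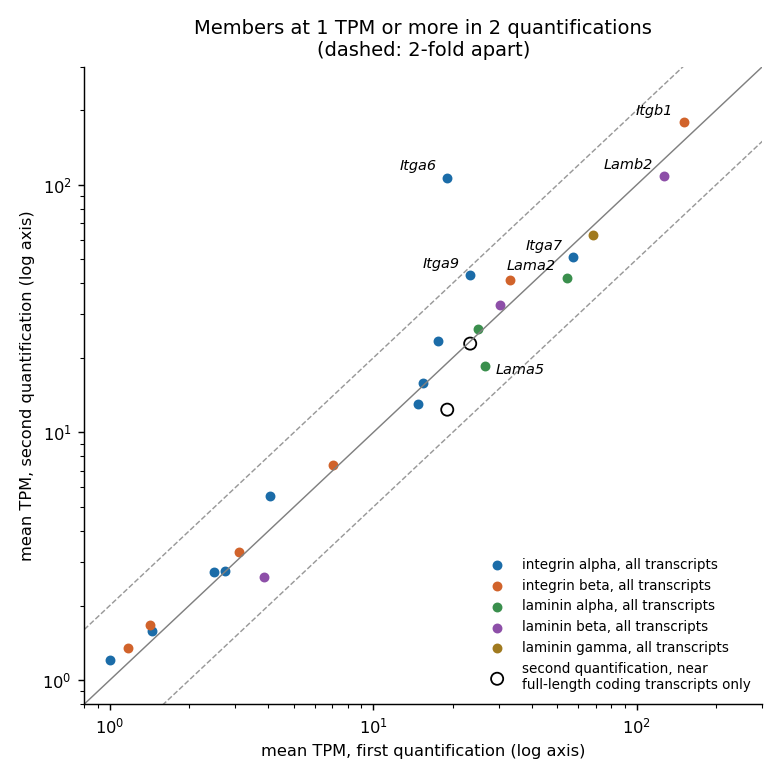
Mean TPM over 2 hearts in the first against the second quantification (log axes) for 24 of the 25 genes at 1 TPM or more; the solid line marks equal values and dashed lines 2-fold. Itga6 lies above the dashed line at 107 TPM, and open circles give Itga6 and Itga9 with the second value restricted to near full-length coding transcripts.

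Between the hearts, 31 of the 38 genes had a mean of 50 counts or more, and 7 did not (Itga10, Itga2, Itgad, Itgae, Itgax, Itgb7 and Itgb2l). Genes were counted as different by a rule of size, since with 2 hearts an exact sign permutation cannot go below p = 0.5 and no test was made. None of the 31 differed by 2-fold or more, against 1.28% of 12541 genes with that count. At 1.5-fold, 2 of 31 (6.45%) did, both higher in heart 1, where the background was 4.27% in either direction and 2.58% higher in heart 1. With 31 genes, 2 is close to that background.

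These were Itgb3, with 330 and 214 reads and a log2 ratio of −0.67 (95% counting interval −0.92 to −0.42), and Itgb8, with 133 and 81 reads and −0.75 (−1.18 to −0.35). Both are chains that pair with Itgav, whose own reads, 1634 and 1650, gave −0.03 (0.04 with spike-in scaling). Itgb3 also pairs with Itga2b, whose reads, 151 and 109, gave −0.51 (−0.88 to −0.15).

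Of the 31 genes 23 (74.2%) were higher in heart 1 and 8 in heart 2, against 49.9% of all 12541 genes higher in heart 1. Their median log2 ratio was −0.11, against 0.00 for all genes. With spike-in scaling 16 of 31 were higher in heart 1, against 32.0% of all genes. The median absolute log2 ratio was 0.16 for the 31 genes and 0.11 for all. With TMM scaling, the genes higher in heart 2 included Itga7 (0.17), Lamb2 (0.12), Itgb5 (0.10) and Lama2 (0.09), 4 of the 15 most abundant, while Lamc1 (−0.14), Lamb1 (−0.15), Itga9 (−0.17), Itga5 (−0.21) and Lama4 (−0.25) were higher in heart 1.

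**Figure D5:**
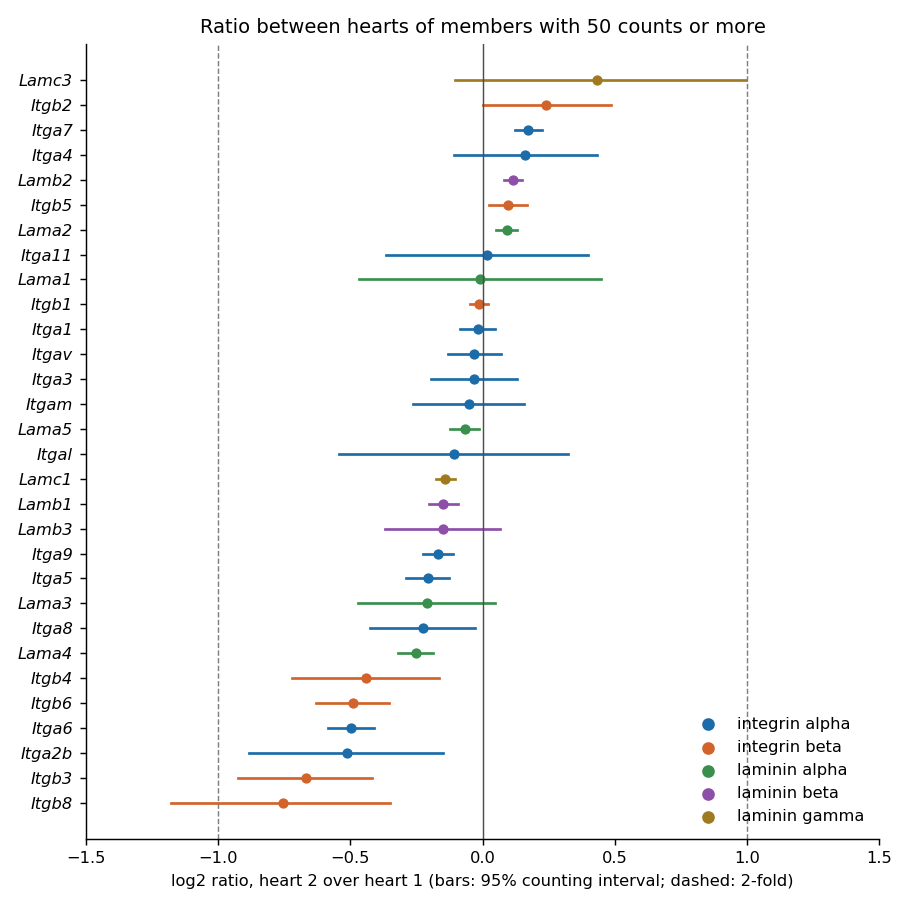
Log2 ratio of heart 2 over heart 1 for 30 of the 31 genes with a mean of 50 counts or more, coloured by class, with the 95% counting interval as a bar and 2-fold marked by dashed lines. All 30 points lie within 2-fold, from Itgb8 at −0.75 to Lamc3 at 0.43.

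The genes around these receptors were read from 3 lists of 57 genes in all: basement membrane partners, other integrin ligands, and adaptors and kinases inside the cell. Of the 57, 51 reached 1 TPM in both hearts and 53 had a mean of 50 counts or more. The adaptor list was led by Actn2, the Z-disc actin crosslinker, at 628 ± 22.4 TPM, Tns1, a tensin that binds beta chain tails, at 278 ± 17.4 TPM, Cd151, a tetraspanin that binds laminin receptors, at 114 ± 5.09 TPM, Fermt2, the kindlin of muscle, at 105 ± 4.65 TPM, and Itgb1bp2, the muscle protein melusin that binds the Itgb1 tail, at 82.5 ± 6.97 TPM. Fermt1, the kindlin of epithelia, had 0 counts in both. None of 29 adaptor genes passed 1.5-fold, and their median log2 ratio was −0.01.

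The basement membrane list was led by Sparc, a collagen-binding protein, at 320.3 ± 34.8 TPM, the collagen chains Col4a1 and Col4a2 at 227 ± 46.1 and 113 ± 12.7 TPM, Dag1, the dystroglycan that also binds Lama2, at 129 ± 1.60 TPM and Hspg2, perlecan, at 101 ± 9.47 TPM. Its 15 genes had a median log2 ratio of −0.17, against 0.00 for all genes with TMM scaling. Of these 15, 1 passed 1.5-fold: Col4a6, with 240 and 162 reads and −0.61. Of 9 other ligands, with a median of −0.29, 2 passed 2-fold: Thbs1, thrombospondin, with 2644 and 777 reads and −1.81, and Tnc, tenascin C, with 78 and 35 reads and −1.18. All 3 were higher in heart 1. They were 3 of 53 genes (5.66%) at 1.5-fold, where the background was 4.27%. At 2-fold, 2 of the 53 passed, where the background was 1.28% of 12541 genes.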

How the data were processed

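Total RNA-seq of 2 hearts of 1 group was used. The authors deposited a first quantification with expected counts, TPM and FPKM for genes and transcripts, and with each transcript's percent of its gene's TPM; the sample notes say that it came from transcriptome alignments (mm10, GENCODE M21). The authors also deposited a second quantification with estimated counts and TPM of transcripts, which the sample notes trace to the reads and an index, and which was summed over each gene here. The sources used here do not give the tools; columns are laid out as RSEM and kallisto write them. Per the file values, effective length is transcript length minus 99 nt in the first, while the second implies mean fragments of 326 and 328 nt, so short transcripts get more TPM per read there.

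Expected counts were rounded for edgeR 4.0.16 (TMM factors) and DESeq2 1.42.0 (size factors) in R 4.3.3. Both used the genes that passed edgeR's expression filter, with spike-ins and numbered tRNA entries left out. Log2 ratios used a prior count of 1, and 95% intervals are exact (Clopper-Pearson) for the counts of both hearts. They and the floors cover counting error only: without molecular identifiers, reads are not independent molecules. Genes were counted as different at a mean of 50 counts and 2-fold; no test was made. In simulated libraries of 12525 genes, heart 2 over heart 1, the rule called 100% of genes changed 4-fold in either direction, 44.7% and 66% of those lowered and raised 2-fold (exactly the limit of the rule), and 0% of genes left alone. Both simulated libraries were drawn with counting error only, from 1 shared rate per gene. The 0% therefore does not measure how often the rule calls genes between real hearts.

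The members and lists were chosen with earlier results of these data known. Named with values were Itga7, Itgb1, Lama2, members at 5 TPM or more, members past 1.5-fold or 2-fold apart between quantifications, the 10 partner genes of highest TPM and those past 1.5-fold; other members are given by level. The alternatives were detection thresholds, units, scalings, count minimums, the second quantification and each heart alone. No protein sequence was used here. Results for some genes that these rules name are left out, and they are not reported here.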

Additional observations from a re-analysis of the deposited data

How the results depend on the processing

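No paired analysis was possible because the hearts form 1 group. The number of genes at 1 TPM was 24 in either heart alone and 15 at 5 TPM, 2 genes passed at 1.5-fold, and 1 partner gene passed 2-fold at a mean of 200 counts. Leading transcripts were shared by both hearts for 23 genes when all genes at 1 TPM were taken.

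Shares of TPM moved with the unit. With expected counts in place of TPM they were 26.5% for Itga7, 74.8% for Itgb1, 50.9% for Lama2, 27.5% for Lamb1 and 97.8% for Lamc1. In the second quantification they were 18.8%, 76.1%, 47.9%, 22.8% and 91.3% in the same order. Near full-length coding transcripts, chosen after seeing the data, gave 71.1% for Itgb1, 44.2% for Lama2, 27.4% for Lamb1 and 96.8% for Lamc1 in the first quantification, and 70.7%, 46.1%, 27.1% and 96.7% in the second. With near full-length transcripts only, Itga7 held 37.4% in the second quantification. The cause of these shifts, that of Itga7 included, was not tested. In either heart alone the shares were 32.9% to 38.0% for Itga7, 76.2% to 76.5% for Itgb1, 50.7% for Lama2, 17.8% to 20.2% for Lamb1 and 94.6% to 96.0% for Lamc1. Of 68 log2 ratios of named genes under another scaling or the second quantification, 6 changed sign, for Itga1, Itgav, Itgb1 and Lama5, all within 0.1 of 0.

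Depth limits the genes under 50 counts, whose ratios are not read, and short annotated transcripts, whose TPM rests on few reads.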
